A study of Homo sapiens with 6 samples.

Results

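The 10 genes described here encode subunits of the AP-1 transcription factor and products of the immediate early response. They are the FOS family (FOS, FOSB, FOSL1, FOSL2), the JUN family (JUN, JUNB, JUND) and the immediate early genes EGR1, IER2 and IER3. With earlier results of these data known, they were chosen by symbol from an expression table of 38637 genes. The rule itself uses no measured value, and all 10 were found. Of these, 9 reached the mean of 1 TPM needed for a test, as did 13980 genes in all. FOSB did not.

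AP-1 is a dimer of basic leucine zipper proteins. JUN proteins pair with each other or with FOS proteins, whereas FOS proteins need a JUN partner. The genes are switched on within minutes by growth factors, serum and stress, through MAP kinases, serum response factor and CREB/ATF proteins, and many of their mRNAs are short-lived. In liver, JUN is known for its part in regeneration after injury and in the development of hepatocellular carcinoma (HCC).

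The study asked which mRNAs change when the circular RNA cDCBLD2 is depleted in HCC cells that resist sorafenib, a multikinase inhibitor that acts on RAF kinases and receptor tyrosine kinases. HCCLM3-SR is a derivative of the human HCC line HCCLM3 that the study obtained by raising the sorafenib concentration stepwise. Libraries of the si_cDCBLD2 group (n = 3) came from cells that received siRNA against cDCBLD2, and those of the si_CTRL group (n = 3) from cells given control siRNA. Both groups were exposed to 5 µM sorafenib, and transfection lasted 3 days. The comparison therefore holds the drug constant and has no library without it. Cells grew in medium with fetal bovine serum, and the interval between the last medium change and harvest is not given in the sources used here. Nothing in the labels says that the replicates were separate cultures, so the p-values measure the spread between these libraries, which may be technical.

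Between 17492673 and 23064302 reads per library were recovered from the ratios of the deposited values, as lower bounds. Over all genes tested, same-numbered libraries of the 2 groups shared their deviations from the group means, most of all replicate 1. Replicates 2 and 3 also shared them across numbers, somewhat less closely. Each member is therefore described without and with the replicate number as a block. Gene-level values cannot show the circular RNA itself. The mRNA of its host gene DCBLD2 lay between 25.9 and 58.1 TPM in the si_cDCBLD2 libraries and between 48.5 and 71.5 TPM in the si_CTRL libraries. The epithelial keratins KRT8 and KRT18 were at 1800 to 4413 TPM and the hepatocyte factor HNF4A at 22.9 to 31.3 TPM. The hepatocyte products ALB, APOA1 and TTR, like EPCAM, had means under 1 TPM over the 6 libraries. The remaining markers of the list, CDH1, SERPINA1 and AFP, had means above 1 TPM. TTR was at 1.298 to 1.638 TPM in the si_cDCBLD2 libraries and at 0.2022 to 0.2406 TPM in the si_CTRL libraries. The groups did not overlap for TTR, but its low mean left it out of the test. With the replicate block in limma, 3 of the 6 tested markers of this list rose (KRT8, KRT18 and HNF4A), beside 9.94% of all genes. Without the block 0 were called. Of 8 markers of other cell types, 4 had a mean of at least 1 TPM (CD68, LUM, PECAM1 and COL3A1). The summed level of all 8 was 146 to 164 TPM in the si_cDCBLD2 libraries and 135 to 148 TPM in the si_CTRL libraries. Most of it was CD68, at 96.1 to 125 TPM in the si_cDCBLD2 libraries and 90.0 to 111 TPM in the si_CTRL libraries. The T-cell marker CD3E was at 0 in all 6 libraries. COL3A1, a fibroblast collagen, rose with the block (1.78 to 3.36 TPM against 0.476 to 0.783 TPM, adjusted p = 0.00787, and 0.0635 without the block). The part of these markers in the results was not tested.

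The promoters were searched for short elements known from genes that answer signals. Some of the windows that hold a match are printed here because the members are often described as one regulated group. Sequences are from RefSeq on GRCh38.p14, which gave a promoter (250 bases before to 50 bases after the start) for 8 of the 10 genes and for 35116 promoters in all. Both strands were searched, and capitals mark the match. TGACG, which is also the first part of the cAMP response element TGACGTCA, was found in 8 of 8 member promoters, in 24.6% of all promoters and in 31.2% of the promoters of tested genes. This motif was chosen after the sequences had been seen. In FOS, FOSB and JUN it lay 64, 60 and 123 bases before the start (first base of the match). The starts are those of the promoter set. They can differ from the gene coordinates given below, as they do for FOS, FOSL2 and JUN.
FOS (chr14:75278751-75278780, plus strand): gtggttgagcccgTGACGtttacactcatt
FOSB (chr19:45467923-45467952, plus strand): agcaaggggcgggTGACGtaagcagggggg
JUN (chr1:58784154-58784183, minus strand): ggagtctccatggTGACGggcgggcccgcc

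Within the window searched, the longer elements each occurred in the promoter of a single member. The AP-1 element TGAGTCA was found in FOSL2, where it reads as TGACTCA and starts 4 bases after the start site, and in 4.95% of all promoters (3.63% for tested genes). The full cAMP response element TGACGTCA was found in JUND and in 1.85% of all promoters (2.72% for tested genes). The CArG box, bound by serum response factor, occurred at 2 places in EGR1 and in 1.29% of all promoters (1.05% for tested genes).
FOSL2 (chr2:28392850-28392879, plus strand): gtgccattgtagTGACTCAtctcgggcaga
JUND (chr19:18281804-18281833, minus strand): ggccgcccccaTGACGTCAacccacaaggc
EGR1, first box (chr5:138465364-138465393, plus strand): gccggtcctgCCATATTAGGgcttcctgct
EGR1, second box (chr5:138465386-138465415, plus strand): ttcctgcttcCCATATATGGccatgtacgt

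The GC box GGGCGG occurred in 6 of the 8 promoters, in 45.0% of all promoters and in 65.4% of those of tested genes, and in JUN it shares its first base with the TGACG match. The EGR element GCGGGGGCG occurred in 0 of the 8 and in 5.07% of all promoters (7.70% for tested genes). A match describes the letters in this window and not the binding of a factor. Elements outside the window and variants of the letters were not searched for. A gene without a match may therefore still have the element.

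All 10 genes had more TPM in the si_cDCBLD2 library than in the si_CTRL library of the same number, in 30 of 30 pairs. Among all genes tested, 22% were higher in all 3 pairs. JUN showed the largest difference of the members, with a mean of 138 ± 54.3 TPM in si_cDCBLD2 libraries against 59.2 ± 11.4 TPM in si_CTRL libraries (SD, n = 3 each). FOS had the next largest on the log2 scale, but differed more between libraries of 1 group than between groups. JUND and IER2 were at nearly the same level in both groups.

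When log2(TPM + 1) was fitted in limma with no block, 0 of 9 members passed an adjusted p of 0.05 in either direction. The background was 0.25% of genes called higher and 0.629% called lower. The unadjusted limma p was 0.00541 for JUN and 0.0129 for FOSL2. These 2 members were higher at an unadjusted limma threshold of 0.05, as were 6.78% of all genes. With the replicate block, 7 of 9 members rose (FOS, FOSL1, FOSL2, JUN, JUNB, EGR1 and IER3) and 0 fell. Here 9.94% of all genes were called higher and 25.0% lower. JUN alone also passed a log2 fold change of 1, as did 0.458% of all genes upwards. In limma-voom on the recovered reads, 0 of 10 members were called without the block (189 genes, or 1.26%, called higher), and 7 of 10 with it (17.2%). The median log2 fold change of the members was 0.31, beside -0.08 over all genes tested. Gene-level TPM is a share of the mRNA pool of a whole culture. More cells that express a gene and more of its RNA per cell therefore cannot be told apart.

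**Figure D1:**
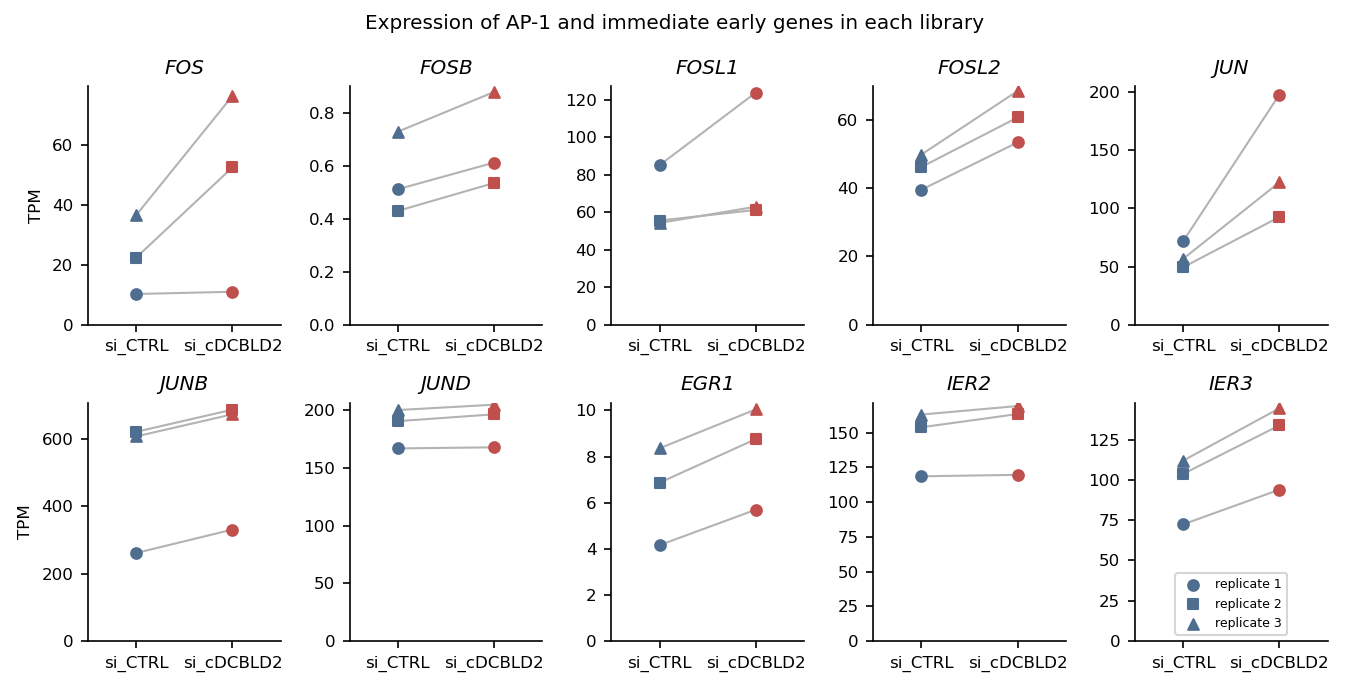
TPM of each gene (vertical axis, from 0, scaled per panel) in the 3 si_CTRL and 3 si_cDCBLD2 libraries, with marker shapes for replicate numbers and lines joining libraries of the same number. Every line goes up, and the groups are separated for JUN and FOSL2 only.

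The blocked result depended on which pair was present. Without replicate 1 of both groups 6 of 9 members were called higher (11.3% of all genes), without replicate 2 there were 3 (2.98%), and without replicate 3 there were 2 (1.32%). JUN and IER3 passed in all 3 of these fits. FOSL2 passed without replicate 1 or 2 and had an adjusted p of 0.0512 in limma without replicate 3.

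**Figure D2:**
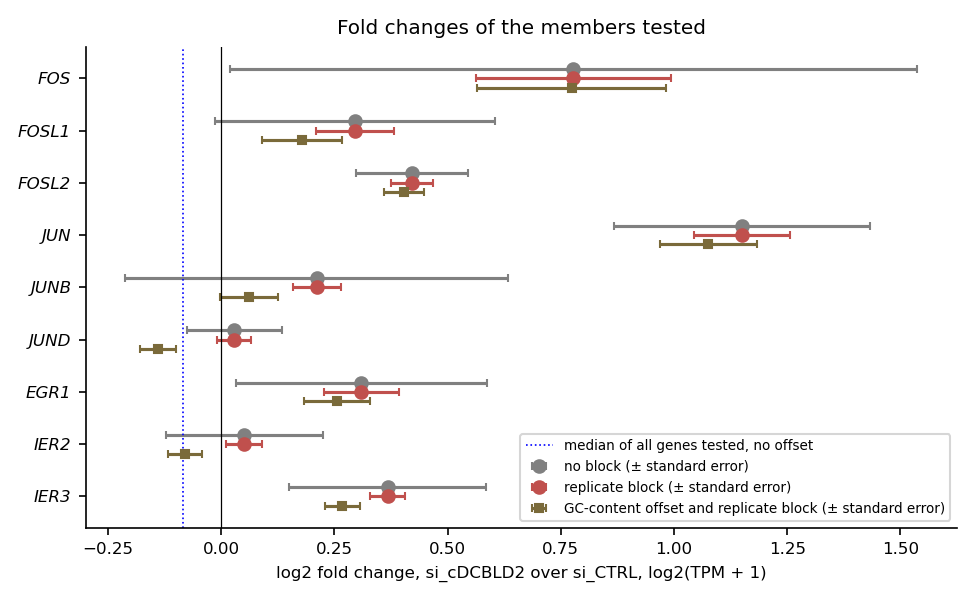
Log2 fold change of si_cDCBLD2 over si_CTRL on the log2(TPM + 1) scale (horizontal axis) for the 9 members tested, with standard errors from limma without a block, with the replicate block, and with a GC-content offset and the block. JUN lies near 1.15 with and without the block, and its standard error narrows from 0.28 to 0.11. The dotted line is the median of all genes tested, -0.08.

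JUN encodes c-Jun, a strong activator whose own gene is an AP-1 target. It lies on chromosome 1 from 58780788 to 58784327, minus strand (GENCODE release 29 on GRCh38, as for all genes below). It was at 198, 92.6 and 123 TPM in si_cDCBLD2 replicates 1, 2 and 3, whereas the si_CTRL replicates had 71.6, 49.4 and 56.5 TPM. Each si_cDCBLD2 library was above each si_CTRL library, and replicate 1 was the highest of both groups. Non-overlapping groups with the knockdown higher occurred in 9.58% of all genes tested, and in 2 of the 10 members. Within pairs the ratio was 2.76, 1.88 and 2.17. On the log2 scale the difference was 1.15 (standard error 0.28, adjusted p = 0.0835 in limma without a block). JUN rose with the replicate block (standard error 0.11, adjusted p = 0.00452). The exact permutation test over libraries gave p = 0.1 (two-sided), the smallest that 3 against 3 libraries allow. Leaving out si_cDCBLD2 replicate 1, the highest library, gave a log2 fold change of 0.85 and a limma adjusted p of 0.0276 without the block. Of the 6 unblocked fits without 1 library, this was the only 1 in which JUN passed. In the others the limma adjusted p was 0.164 to 0.251.

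JUNB, a JUN protein that is a weaker activator than c-Jun at many sites, was the most abundant of the 10. Its gene lies on chromosome 19 from 12791496 to 12793315, plus strand. It was at 330 TPM in si_cDCBLD2 replicate 1 and at 686 and 672 TPM in replicates 2 and 3. The si_CTRL values were 261, 620 and 607 TPM in the same order. In both groups replicate 1 was far below the others, and the groups overlapped. Limma without a block gave a log2 fold change of 0.21 with a standard error of 0.42 (adjusted p = 0.781). With the replicate block JUNB rose (standard error 0.05, adjusted p = 0.0301), by 1.27, 1.11 and 1.11 times within the pairs. With a GC-content offset added to the block its log2 fold change was 0.06 (adjusted p = 0.499). HOOK2 overlaps JUNB on the opposite strand, and the strand setting of the counting is not given in the sources used here, so reads of the overlap cannot be told apart.

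JUND, the JUN protein that is expressed without stimulation in many cell types, lies on chromosome 19 from 18279760 to 18281622, minus strand. Its levels were 168, 197 and 205 TPM after knockdown and 167, 191 and 200 TPM in control cells. Unblocked, limma put it at 0.03 on the log2 scale (standard error 0.11, adjusted p = 0.883). The adjusted p was 0.590 with the replicate block. Its sign turned with the GC-content offset, to -0.14 (adjusted p = 0.0509 with the block).

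FOS encodes c-Fos, the classical immediate early partner of JUN proteins, and lies on chromosome 14 from 75278774 to 75282230, plus strand. It was at 11.0, 52.6 and 76.4 TPM in the si_cDCBLD2 replicates and at 10.2, 22.4 and 36.6 TPM in the si_CTRL replicates. Replicate 1 was lowest in both groups and nearly equal between them, whereas replicates 2 and 3 were higher after knockdown, so that the groups overlapped. The ratio within pairs was 1.07, 2.35 and 2.09. On the log2 scale the difference was 0.78 (standard error 0.76, adjusted p = 0.544 in limma without a block). FOS rose in the blocked fit (standard error 0.22, adjusted p = 0.0407). Without replicate 1 of both groups the blocked log2 fold change was 1.12 (adjusted p = 0.00397), whereas it was 0.57 (adjusted p = 0.146) without replicate 2 and 0.64 (adjusted p = 0.176) without replicate 3. FOS had a within-group SD of 1.18 on the log2 scale, above 99.4% of all genes tested.

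FOSL2, which encodes Fra-2, a FOS protein that lacks the strong activation domain of c-Fos, lies on chromosome 2 from 28392448 to 28417312, plus strand. It was at 53.5, 60.8 and 68.6 TPM after knockdown and at 39.6, 46.2 and 49.9 TPM in control cells. The groups did not overlap, and within pairs the ratio was 1.35, 1.31 and 1.37. Limma without a block gave a log2 fold change of 0.42 with a standard error of 0.12 (adjusted p = 0.108). With the replicate block FOSL2 rose (standard error 0.05, adjusted p = 0.00540), and the exact permutation test gave p = 0.1. The annotation places FLJ31356 (opposite strand) and AC104695.3 (same strand) over part of FOSL2.

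FOSL1 encodes Fra-1, the FOS protein that is often high in invasive carcinoma cells, and lies on chromosome 11 from 65892049 to 65900573, minus strand. It was at 124, 61.1 and 62.9 TPM in the si_cDCBLD2 replicates and at 85.0, 55.5 and 54.2 TPM in the si_CTRL replicates. Here replicate 1 was the highest library of both groups, the reverse of FOS and JUNB, and the groups overlapped. Unblocked, limma put it at 0.30 on the log2 scale (standard error 0.31, adjusted p = 0.575). FOSL1 rose in the blocked fit (adjusted p = 0.0460). With the GC-content offset and block the log2 fold change was 0.18 (adjusted p = 0.183), and without si_cDCBLD2 replicate 1 and with no block it was -0.03.

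FOSB, on chromosome 19 from 45467995 to 45475179 (plus strand), was near the limit of detection. It was at 0.611, 0.534 and 0.878 TPM after knockdown and at 0.510, 0.429 and 0.728 TPM in control cells, which rested on 13 to 29 recovered reads per library. The groups overlapped, and it was left out of the test by its low mean. ERCC1 overlaps it on the opposite strand.

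EGR1, a zinc finger transcription factor driven by serum response factor, lies on chromosome 5 from 138465490 to 138469315, plus strand. It was at 5.70, 8.76 and 10.1 TPM after knockdown and at 4.16, 6.87 and 8.36 TPM in control cells, with replicate 1 lowest in both groups. On the log2 scale the difference was 0.31 (standard error 0.28, adjusted p = 0.508 in limma without a block). EGR1 rose with the replicate block (adjusted p = 0.0374), but passed in none of the 3 blocked fits that left out a pair (adjusted p = 0.0548 to 0.185).

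IER3, a stress-inducible protein linked to ERK and NF-kB signalling, lies on chromosome 6 from 30743199 to 30744554, minus strand. It was at 93.9, 134 and 144 TPM in the si_cDCBLD2 replicates and at 72.4, 104 and 112 TPM in the si_CTRL replicates. The groups overlapped, yet the ratio within pairs was 1.30, 1.29 and 1.29. Limma without a block gave a log2 fold change of 0.37 with a standard error of 0.22 (adjusted p = 0.326). IER3 rose once the replicate was a block (standard error 0.04, adjusted p = 0.00521). IER3-AS1 overlaps IER3 on the opposite strand.

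IER2, a nuclear regulator of transcription induced by growth factors, lies on chromosome 19 from 13150415 to 13154908, plus strand. It was at 120, 163 and 169 TPM after knockdown and at 119, 154 and 163 TPM in control cells. Unblocked, limma put it at 0.05 on the log2 scale (standard error 0.17, adjusted p = 0.873), and the adjusted p was 0.365 with the replicate block. With the GC-content offset it was -0.08. AC011446.2 overlaps it on the opposite strand. Single exact permutation tests of the remaining genes gave p = 0.3 for FOS and IER3, 0.4 for EGR1, 0.5 for FOSB, FOSL1, JUNB and IER2, and 0.7 for JUND (all two-sided).

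The members did not share a single pattern over libraries. On the log2(TPM + 1) scale, replicate 1 minus the mean of replicates 2 and 3 was -2.43 for FOS in the si_cDCBLD2 group and -1.40 in the si_CTRL group. It was -1.04 and -1.23 for JUNB, and -0.63 and -0.73 for EGR1. IER3, IER2, FOSL2 and JUND were also lower in replicate 1 of both groups, by smaller amounts. FOSL1 (0.99 and 0.62) and JUN (0.89 and 0.43) were higher in replicate 1 of both groups. Thus 7 of the 9 members tested were low and 2 were high in replicate 1, in both arms alike. The labels do not say what the replicate number stands for, and its part in these levels was not tested further than by the block.

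**Figure D3:**
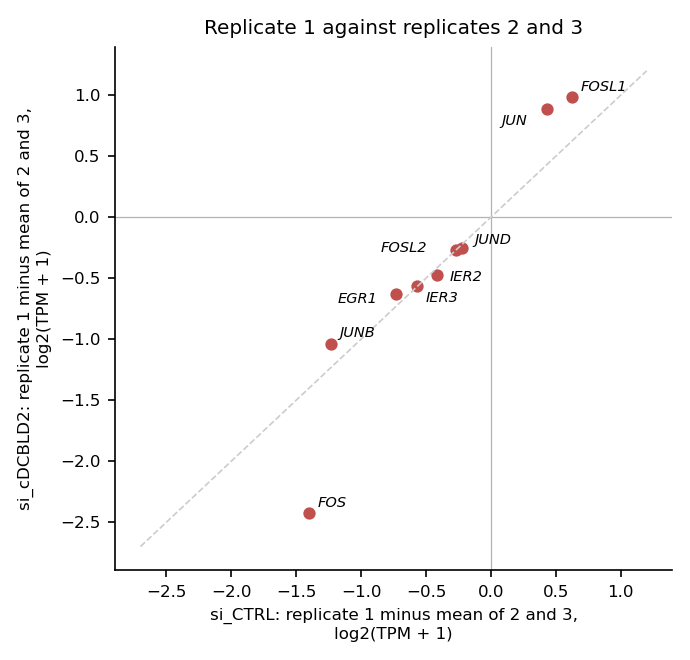
Replicate 1 minus the mean of replicates 2 and 3, in log2(TPM + 1), in si_CTRL (horizontal axis) and si_cDCBLD2 libraries (vertical axis), 1 point per member tested. The dashed line marks equal values in both groups. FOS sits lowest, at -1.40 and -2.43, and FOSL1 and JUN sit above 0 in both groups.

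In TPM, which is per length, the order of the mean levels in control cells was JUNB (496 TPM), JUND (186), IER2 (145), IER3 (96.0), FOSL1 (64.9), JUN (59.2), FOSL2 (45.2), FOS (23.0), EGR1 (6.46) and FOSB (0.556). The ranges over libraries overlapped between IER3 and FOSL1, between FOSL1 and JUN and between JUN and FOSL2, and no other neighbours overlapped. After knockdown the mean of JUN (138 TPM) passed those of FOSL1 (82.6) and IER3 (124), although its range overlapped with those of FOSL1, IER3, IER2 and JUND. The other 9 genes kept their order.

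The FOS family sum was 191 ± 17.0 TPM in si_cDCBLD2 libraries against 134 ± 8.55 TPM in si_CTRL libraries (SD, n = 3 each), and the groups did not overlap (two-sided exact permutation test, p = 0.1). FOSL1 made up 65.6% of it in si_cDCBLD2 replicate 1 and 62.8% in si_CTRL replicate 1, whereas FOS made up 5.81% and 7.55%. In replicates 2 and 3 the share of FOS was 30.03% and 36.6% after knockdown and 17.97% and 25.9% in control cells. FOSL1 thus led the family in replicate 1 of both groups, and the share of FOS exceeded that of FOSL1 only in si_cDCBLD2 replicate 3 (36.6% against 30.1%). In the JUN family JUNB held the largest share in every library, from 47.5% to 72.1%. JUN held 28.4%, 9.50% and 12.3% of the JUN family sum after knockdown and 14.3%, 5.74% and 6.55% in control cells, higher in 3 of 3 pairs (exact permutation p = 0.3). Without si_cDCBLD2 replicate 1 the difference in this share was 2.0 percentage points, beside 7.85 with all libraries. After adjustment over the 10 measures of composition, the lowest p was 0.6.

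**Figure D4:**
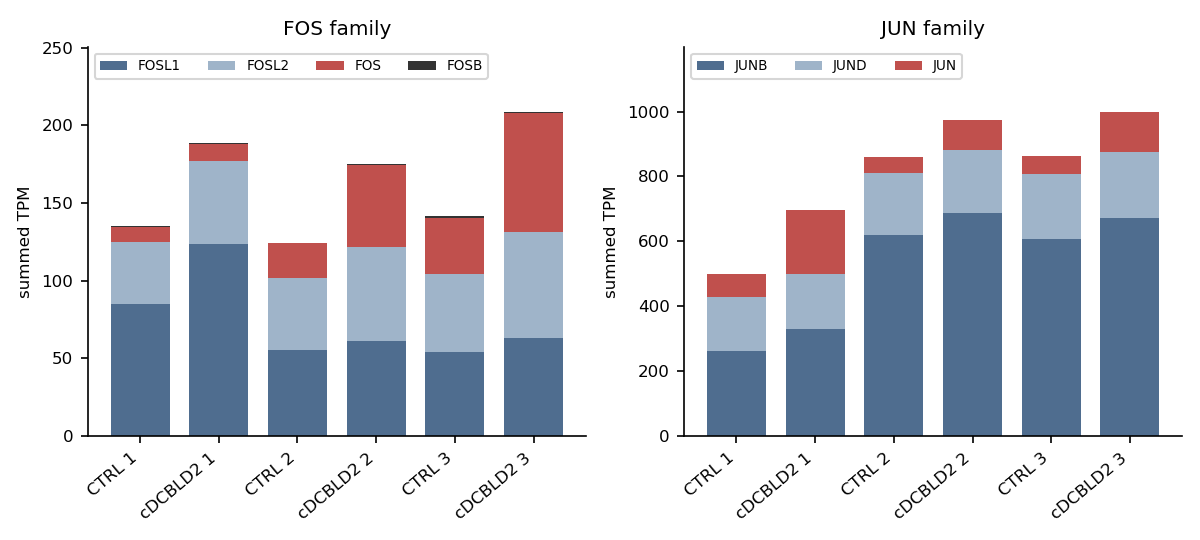
Summed TPM of the FOS family (left) and the JUN family (right) in each library, stacked by gene, with libraries of the same number side by side. FOSL1 is the tallest part of the FOS family in replicate 1 of both groups, and JUNB is the tallest part of the JUN family in all 6 libraries.

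The transcripts of the members were GC-rich. Their GC content lay between the 59.7th percentile (FOS) and the 99.3rd percentile (JUND) of the genes tested, and none lay below the median. Across 12957 genes tested, the log2 fold change correlated with GC content (Spearman rho 0.65) and with length (rho -0.28). Genes are not independent replicates, and the 6 libraries are shared by all of them. When the genes were divided by GC content into 5 bins of equal size, the median log2 fold change ran from -0.40 in the lowest to 0.11 in the highest bin, and 8 of the 9 members tested were in the upper 2 bins. With the trend removed from each library and the replicate block kept, 4 of 9 members were called higher (FOS, FOSL2, JUN and IER3), where 11.6% of all genes were called higher and 13.4% lower. JUN was 1.08 (adjusted p = 0.00549), FOS 0.77 (0.0456), FOSL2 0.40 (0.00626) and IER3 0.27 (0.00989) in log2 fold change. With the offset 7 of the 9 members and 48.2% of all genes were above 0, compared with 9 of 9 and 37.6% without it.

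The study concerned the microRNA miR-345-5p as a partner of cDCBLD2. Its mature sequence, with the seed (bases 2 to 8) in capitals, shows what was searched for in the members.
miR-345-5p (RefSeq, GRCh38.p14): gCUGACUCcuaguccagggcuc
The site that pairs with this seed, GAGTCAG, occurred in the coding sequence of 1 of the 10 members (JUND) and in 12.7% of the tested genes with a coding sequence. It occurred in the 3′ UTR of 0 members and in 11.0% of tested genes.

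The dimer partners of AP-1, together with the small Maf proteins, were mixed. Of 12 genes tested, 0 were called without the block, and 4 rose and 3 fell with it (4 and 1 with the GC-content offset added). Of all genes, 9.94% were called higher and 25.0% lower with the block (11.6% and 13.4% with the offset added). The median log2 fold change was 0.14. The most abundant were MAFG, ATF4, MAFK and MAFF. ATF4, the stress-response activator, was at 137, 119 and 120 TPM after knockdown and at 123, 99.7 and 104 TPM in control cells (log2 fold change 0.20, limma adjusted p = 0.269 unblocked and 0.0203 blocked). With the GC-content offset and block ATF4 was at 0.13 and no longer called (adjusted p = 0.0663). MAFK had non-overlapping groups (107 to 139 against 91.6 to 99.9 TPM) and rose with the block (log2 fold change 0.33, adjusted p = 0.0130, and 0.121 without it). The offset lowered MAFK to 0.19 (adjusted p = 0.0347 with the block).

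Of 30 other immediate early genes 23 were tested. Without the block 0 were called, and with it 9 rose and 2 fell, beside 9.94% and 25.0% of all genes. With the GC-content offset added 9 rose and 1 fell, beside 11.6% and 13.4% of all genes. The median log2 fold change was 0.16. HES1, TRIB1, ZFP36 and MYC had the highest levels. ZFP36, which encodes the mRNA-destabilizing protein tristetraprolin, was at 139, 186 and 234 TPM after knockdown and at 85.3, 124 and 140 TPM in control cells (log2 fold change 0.67, limma adjusted p = 0.149 unblocked and 0.00436 blocked). TRIB1 fell with the block (-0.22, adjusted p = 0.0174, and 0.171 without it). HES1 (0.10) and MYC (-0.09) did not pass (adjusted p = 0.214 and 0.284 with the block). KLF2 (log2 fold change 1.07) and RHOB (1.08), chosen here after their values were seen, had non-overlapping groups. Like JUN, they had their highest library in si_cDCBLD2 replicate 1 (33.5 and 79.3 TPM). Their limma adjusted p was 0.110 and 0.106 without the block, and 0.00436 and 0.00616 with it. With the GC-content offset and block it was 0.00356 and 0.00786. IER5, CSRNP1 and the low EGR2 also had non-overlapping groups with the knockdown higher, as did 9.58% of all genes tested. TRIB1, MCL1 and NR4A2 had them with the knockdown lower, as did 22.3% of all genes tested.

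Among upstream kinases and serum response transcription factors, 25 of 26 were tested. MAPK9, which encodes the JUN N-terminal kinase JNK2, fell in limma without a block, from 24.7 ± 1.47 to 15.7 ± 0.339 TPM (SD, n = 3 each, log2 fold change -0.62, adjusted p = 0.0451). The unblocked call was lost in 5 of the 6 fits without 1 library (adjusted p = 0.151 to 0.222), without a filter on low values (0.0673) and with the length offset (0.0542). The GC-content offset reduced the change of MAPK9 to -0.34 and also ended the call (adjusted p = 0.103). MAPK9 fell with the replicate block (adjusted p = 0.00503), also with the GC-content offset (0.0221). With the block 2 of the 25 rose and 9 fell, beside 9.94% and 25.0% of all genes, and the median log2 fold change was -0.22. Adding the GC-content offset left 2 higher and 5 lower, beside 11.6% and 13.4% of all genes. ELK4, ATF1, MAP2K4 and NAB1 were no longer called. Of 25 AP-1 target genes 17 were tested, and 0 were called without the block. With the block 3 rose and 1 fell, beside 9.94% and 25.0% of all genes. With the GC-content offset added 4 rose and 1 fell, beside 11.6% and 13.4%. The median log2 fold change of the targets was 0.13, and 11 of the 17 were above 0, beside 37.6% of all genes. Among the most abundant of them, HMGA1 (-0.09), CCND1 (-0.15) and SPP1 (-0.29) did not pass with the block (log2 fold changes in parentheses, limma adjusted p = 0.135, 0.0590 and 0.161). With the GC-content offset and block HMGA1 fell (-0.22, adjusted p = 0.0109), and SPP1 turned to 0.07 (adjusted p = 0.633).

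FOS and JUN had unlike patterns over the 6 libraries. By Pearson's r of log2(TPM + 1) over 6 libraries among 13971 genes that are no members, the genes most like FOS were AGAP3, RAI1 and CA12, at 0.9998, 0.998 and 0.997. Those most like JUN were AMIGO2, TRAF4 and SLC22A18AS, each at 0.993 or 0.994. The r between FOS and JUN was -0.08. FOS was closest among the members to EGR1 (0.955), JUND (0.948) and IER3 (0.947), and JUN to FOSL1 (0.758). These coefficients describe a pattern over a few libraries that all genes share.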

How the data were processed

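Polyadenylated RNA of 6 libraries was sequenced (3 si_cDCBLD2, 3 si_CTRL, groups and replicate numbers from the labels). The authors deposited TPM per gene, a unit in which reads are divided by gene length and scaled to 1000000 per library. Per the submitters' processing notes, fastp 0.20.1, HISAT2 2.1.0 and StringTie 2.0 were used with hg38. Annotation, strand and multimapping settings are not given in the sources used here. Members and gene lists were chosen with earlier results of these data known.

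For the 13980 genes whose mean reached 1 TPM, log2(TPM + 1) was fitted in limma 3.58.1 (R 4.3.3) with its trend option, and p-values were adjusted by Benjamini-Hochberg over all of them. A call needed an adjusted p under 0.05, and the stricter call also an absolute log2 fold change over 1, the thresholds of the study. Fold changes of low genes are understated on this scale. DESeq2, which the study names, needs counts and was not used. The fit was tested on simulated data. Single values were compared by exact permutation of libraries (scipy 1.17.1).

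The replicate numbers come from the labels, which do not say what they mark. Correlations of deviations from group means were 0.560, 0.343 and 0.362 for same-numbered libraries 1, 2 and 3. They were also positive between si_cDCBLD2 replicate 3 and si_CTRL replicate 2 (0.247). Between si_cDCBLD2 replicate 2 and si_CTRL replicate 3 the value was 0.215. Replicate 1 of either group was negatively correlated with replicates 2 and 3 of the other (-0.450 to -0.376). The values thus set replicate 1 apart more clearly than they tell replicates 2 and 3 apart. The numbers were taken to pair the libraries, and the replicate block is given beside the main fit.

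Reads were recovered from TPM ratios between libraries: of 17285 genes above 0 in all 6, 94.2% had under 3000 reads in their smallest library and gave whole numbers within 0.01. Precision from such reads covers counting error only. Limma-voom used genes with at least 10 reads in 3 libraries.

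GC content, length, coordinates and coding sequences came from GENCODE 29 (25655 genes matched by symbol, 543 by synonym, 12439 not), which may not be the authors' annotation, and 92.7% of tested genes had a GC content. Loess trends (span 0.5) were removed per library. The genes named are the members and, per list, up to 4 genes called in the main fit or else the 4 with the highest mean TPM, and the 3 genes most correlated with FOS and with JUN. A further gene that this rule names is not reported here. KLF2, RHOB, COL3A1 and the other genes named outside the rule were chosen after their values were seen. Alternatives were another scaling, other filters, a pseudocount of 0.1, the block, GC and length offsets, limma-voom and leaving out libraries. Those that joined the block with a length offset, a scaling or a left-out pair were chosen after seeing the data. Python 3.11.15, numpy 2.4.6 and pandas 2.3.3 were used.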

Additional observations from a re-analysis of the deposited data

How the results depend on the processing

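Without a block, 0 of 9 members were called higher under another scaling, other filters, a pseudocount of 0.1, a GC or length offset and limma-voom (0 of 10 for the latter and without a filter), and 0 to 2 without 1 library (JUN and FOSL2 without si_cDCBLD2 replicate 1). The replicate block gave 7 (9.94% of all genes higher), also with a length offset, upper-quartile scaling or limma-voom (17.2% for the latter). With the GC-content offset it gave 4 (11.6%). Without replicate 1, 2 or 3 of both groups it gave 6, 3 and 2 (11.3%, 2.98% and 1.32%). The share of all genes is not given here for the length offset or the scaling with the block, nor for the fits that left out 1 library. Members past both thresholds were 0 in every fit without the block. With the block there was 1 (JUN, but FOS in place of JUN without replicate 1 of both groups). The share of all genes past both upwards was 0.458% with all libraries. Limma-voom with the block gave 2 members, beside 1.27% of all genes upwards. No member was called lower under any alternative run.

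Without a block, 1 gene of the 4 related lists was called (MAPK9). Calls in these lists numbered 0 without a filter or with the GC-content offset, 2 with protein-coding genes only or a length offset, 3 with limma-voom, and 0 to 23 without 1 library (23 without si_cDCBLD2 replicate 1). With the replicate block they numbered 33, or 27 with the GC-content offset, 34 with the length offset, 39 with upper-quartile scaling, 48 with limma-voom, and 38, 11 and 7 without pair 1, 2 or 3. The counts join both directions, over lists of 12, 23, 25 and 17 genes tested in the main fit. Of all genes, 9.94% were called higher and 25.0% lower with the block. These shares were 11.6% and 13.4% with the GC-content offset added, and 17.2% and 20.9% with limma-voom and the block. Without pair 1, 2 or 3 they were 11.3% and 28.0%, 2.98% and 7.75%, and 1.32% and 3.19%. Shares for the length offset, the scaling and the fits without 1 library are not given here.

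The GC-content offset, with or without the block, turned the log2 fold change of JUND to -0.14 and that of IER2 to -0.080. Over the 6 fits without 1 library, FOSL1 ran from -0.033 to 0.50, JUNB from -0.20 to 0.56, JUND from -0.047 to 0.11 and IER2 from -0.087 to 0.21, and the other 5 members stayed above 0. The difference in the FOSL1 share of the FOS family ran from -16.0 to 2.09 percentage points and that in the JUNB share of the JUN family from -9.50 to 3.93. The cause of these shifts was not tested. Depth limits FOSB, at 13 to 29 reads per library, and 3 libraries a group limit the rest.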
